A study of Mus musculus with 8 samples.

Results

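The genes described here are the Wnt ligands of the mouse with the proteins that carry, receive and restrain them. They were taken by name from the deposited expression table: genes whose symbol starts with Wnt, Fzd, Sfrp or Dkk followed by a digit, together with Lrp5, Lrp6, Axin1, Axin2, Lef1, Tcf7, Tcf7l1, Tcf7l2, Frzb, Wif1, Porcn and Wls. The rule found 49 of the 21878 genes in the table, and 30 of the 49 were expressed highly enough to be tested (an average of 0.5 RPKM or more across the 8 libraries). RPKM are reads scaled to gene length and to the size of the library.

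RNA sequencing had been run on 8 mouse libraries labelled as pulmonary endothelial cells from lung. The labels give 4 libraries the treatment Ad-control and 4 the treatment Ad-KLK8, and the study is about the secreted serine protease KLK8 (kallikrein-related peptidase 8) in endotoxemic lung injury. The comparison asked how transcript levels in the libraries labelled Ad-KLK8 differed from those labelled Ad-control. The labels give no strain, age, dose or time, do not expand the prefix Ad, do not say what form or species of KLK8 was used, and do not say whether replicates were separate cultures or animals, so the p-values measure the spread between these libraries, which may be technical.

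Wnt ligands are secreted, lipid-modified proteins that bind Frizzled receptors on nearby cells. With the co-receptors Lrp5 and Lrp6 they keep β-catenin from being degraded, so that it can enter the nucleus and work with TCF/LEF factors, while other ligands such as Wnt5a act largely through β-catenin-independent routes that shape cell polarity and movement. Secreted Frizzled-related proteins bind the ligands themselves, and Dickkopf proteins block the co-receptors. In lung and vessels these signals are known for branching, for exchange between mesenchyme and epithelium, and for vessel growth and barrier formation.

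The libraries held 15771847 to 16761410 gene-assigned reads in the group labelled Ad-control and 17785889 to 18702940 in the group labelled Ad-KLK8, recovered from the deposited values. The limit that 0 reads allow was 0.160 to 0.190 RPM (reads scaled to library size) per library, taken as 3 reads and covering counting error only. Klk8 itself, the gene in the treatment's name, did not separate the groups. The controls read 1135, 1403, 1232 and 1422 RPKM in the order of their replicate numbers, against 1159, 3263, 1354 and 1276 RPKM for Ad-KLK8 (log2 difference 0.31, two-sided exact permutation test, p = 0.657), and the difference was -0.04 (p = 0.771) without Ad-KLK8 replicate 2 and 0.53 (p = 0.0857) after median-of-ratios scaling. That library stood apart from its group (chi-square per degree of freedom 18.8 to 20.4 against each of the others, which differed from each other by 2.14 to 2.7), and Ad-control replicates 1 and 3 lay closer together (2.53) than the other control pairs (6.71 to 11.4). The defining markers of the labelled cell type were low: the 10 endothelial markers summed to 5.93 to 7.20 RPKM under the control label and 4.70 to 6.32 RPKM under the Ad-KLK8 label, 2 of the 10 could be tested, and Tie1, Cldn5, Emcn and Erg were under 0.1 RPKM in every library. The 11 fibroblast markers summed to 1779 to 2028 RPKM and 3885 to 4010 RPKM (9 higher and 2 lower of 11 tested), and the 9 mesothelial markers to 228 to 298 RPKM and 736 to 803 RPKM (7 higher and 1 lower of 9). The 8 markers of smooth muscle and pericytes summed to 700 to 1027 RPKM and 808 to 1099 RPKM (1 higher and 2 lower of 6 tested, or 3 higher and 1 lower after median-of-ratios scaling). The 8 lung epithelial markers summed to 0.852 to 5.66 RPKM and 0.617 to 2.84 RPKM (neither direction in the 1 tested), with Nkx2-1, Scgb1a1 and Foxj1 under 0.1 RPKM throughout. The 6 leukocyte markers summed to 23.2 to 43.2 RPKM and 14.2 to 17.2 RPKM (2 lower of 3 tested), with Cd3e under 0.1 RPKM throughout. After median-of-ratios scaling 8 mesothelial markers were higher and 1 lower, and 1 leukocyte marker was lower. Thy1 and Postn were the fibroblast markers that fell, and Krt19 the mesothelial one. Among all tested genes 25.7% were higher and 52% lower, or 38.4% and 38.7% after that scaling. The part of these markers in the results below was not tested, and in bulk RNA a change in the number of cells of a type and a change in RNA per cell cannot be told apart.

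Among the tested genes, transcripts of a few secreted proteins differed most on the log2(RPKM + 1) scale. By the ratio of mean RPKM, Wnt4, Wnt5a and the antagonist Sfrp1 were each more than 3-fold higher in the libraries labelled Ad-KLK8. The antagonist Frzb was 4.14-fold lower by that ratio. Among Frizzled receptors, co-receptors and nuclear factors the largest such ratios were those of Fzd5 (2.21-fold lower), Tcf7 (1.99-fold lower) and Lef1 (1.92-fold lower). On the log2(RPKM + 1) scale, which compresses low levels, all of these receptors and factors moved by less than 2-fold. Of the 30 tested genes 14 were higher and 9 lower at an adjusted p under 0.05 (limma on log2(RPKM + 1), Benjamini-Hochberg adjustment over all 11998 tested genes), and 7 did not pass. Among all tested genes 77.7% passed, 25.7% higher and 52% lower, so a share of 46.7% higher among the Wnt genes stands beside a background in which lower genes were the more numerous. At least 2-fold, 3 Wnt genes were higher and 1 lower, against 2.35% and 9.85% of all tested genes. The median log2 difference of the 30 genes was 0.13, that of all tested genes -0.19. After median-of-ratios scaling, which moves the median of all tested genes to -0.002, 16 Wnt genes were higher and 7 lower with a median of 0.26, against 38.4% higher and 38.7% lower of all tested genes (77.1% in all), and at least 2-fold again 3 higher and 1 lower, against 4.12% and 6.8%. Quantile normalization gave 18 higher and 6 lower (4892 and 4373 of all tested genes). Rescaling to TPM, which gives every library the same total, gave 12 higher and 11 lower (2853 and 7160 of all genes in that fit). The TPM fit tested a different set of genes, as its 11 lower include a Wnt gene outside the 30. Its counts are therefore not directly comparable with those for the 30 or the 11998 genes. The 2 groups of libraries did not overlap for 21 of the 30 genes, as for 72.2% of all tested genes.

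**Figure D1:**
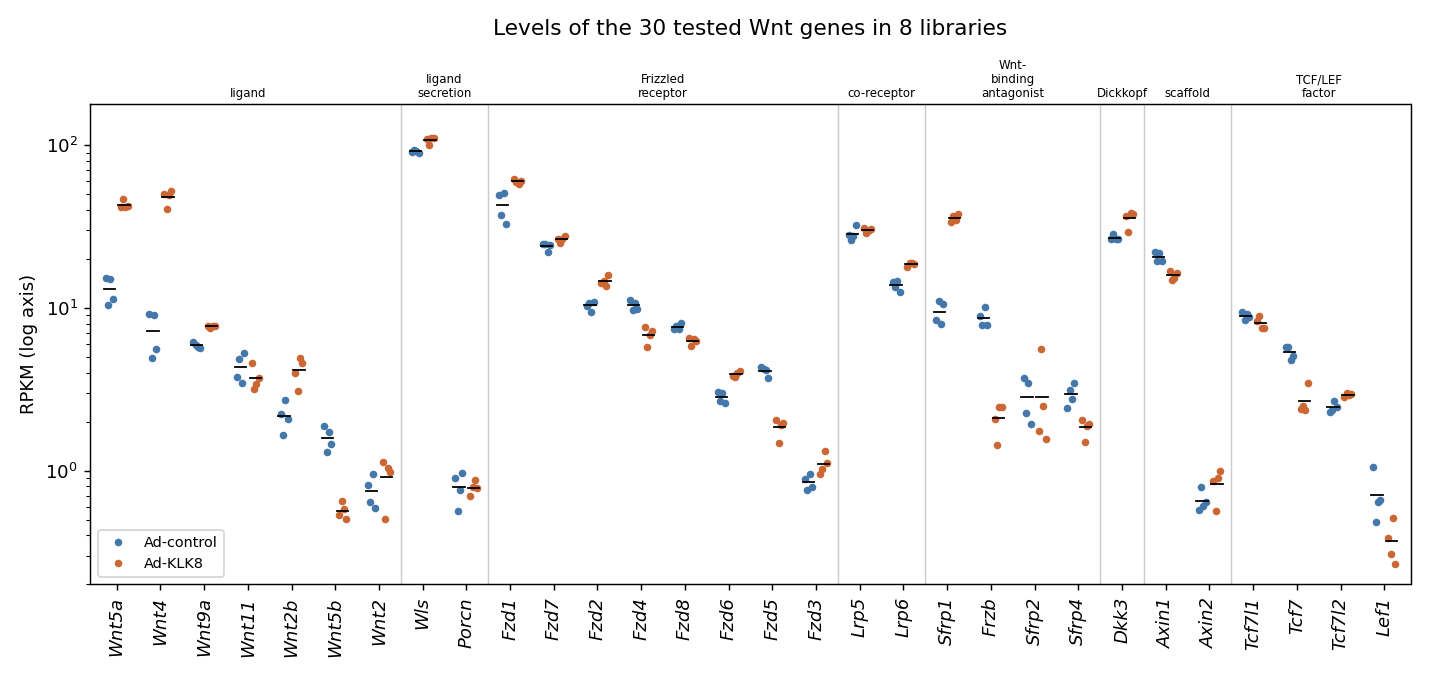
Level in RPKM (log axis) of the 30 tested Wnt genes in each of the 8 libraries, grouped by role; each point is 1 library and each black line the mean of 4. Wls is the highest of all, and the points of Wnt5a, Wnt4, Sfrp1 and Frzb are separated furthest between the groups.

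**Figure D2:**
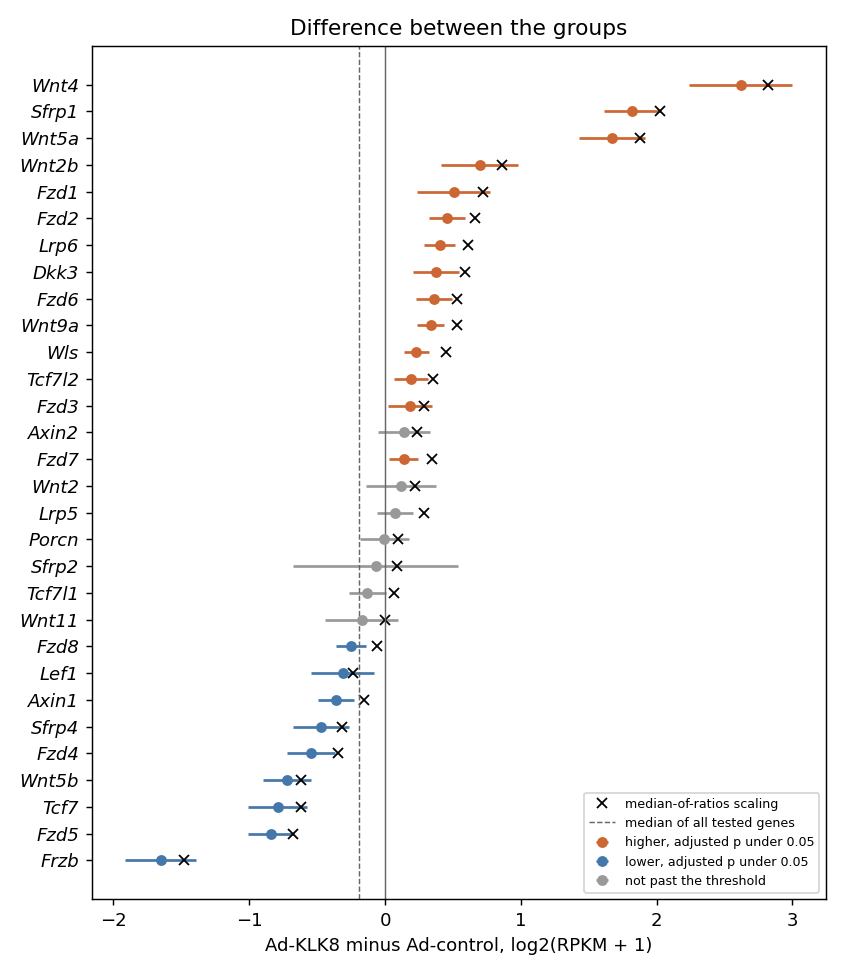
Difference between the groups, Ad-KLK8 minus Ad-control in log2(RPKM + 1), for the 30 tested Wnt genes, with bars for the 95% confidence interval, crosses for the same difference after median-of-ratios scaling and a dashed line for the median of all tested genes (-0.19). Wnt4, Sfrp1 and Wnt5a lie at 2.62, 1.82 and 1.67 and Frzb at -1.65, and the crosses of Porcn, Sfrp2, Tcf7l1 and Wnt11 fall on the other side of 0 from their points.

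Promoters are shown for the called Wnt genes with a single listed start that rose most (Wnt4, Wnt2b) and fell most (Frzb, Fzd5). Sfrp1 and Wnt5a rose more than Wnt2b, but they had no single listed start and are not shown. Each runs 5′ to 3′ on the strand of the gene, from 250 bases before to 50 bases after the start, after RefSeq on GRCm38.p6. Such entries were found for 33 of the 49 genes (41 starts). Capitals mark GC boxes (GGGCGG or its complement CCGCCC), the motif bound by Sp1-type factors.
Wnt4: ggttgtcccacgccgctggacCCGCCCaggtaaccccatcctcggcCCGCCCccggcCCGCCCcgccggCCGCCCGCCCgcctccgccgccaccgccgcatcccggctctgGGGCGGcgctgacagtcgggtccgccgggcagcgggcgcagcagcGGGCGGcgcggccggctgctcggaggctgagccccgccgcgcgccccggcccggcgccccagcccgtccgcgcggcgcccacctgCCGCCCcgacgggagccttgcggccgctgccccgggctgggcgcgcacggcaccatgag
Wnt2b: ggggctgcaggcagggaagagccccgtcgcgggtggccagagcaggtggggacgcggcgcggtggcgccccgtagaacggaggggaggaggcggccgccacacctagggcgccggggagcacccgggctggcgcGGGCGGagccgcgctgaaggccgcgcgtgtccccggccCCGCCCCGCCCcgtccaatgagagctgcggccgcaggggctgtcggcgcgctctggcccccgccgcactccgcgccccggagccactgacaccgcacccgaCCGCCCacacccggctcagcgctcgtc
Frzb: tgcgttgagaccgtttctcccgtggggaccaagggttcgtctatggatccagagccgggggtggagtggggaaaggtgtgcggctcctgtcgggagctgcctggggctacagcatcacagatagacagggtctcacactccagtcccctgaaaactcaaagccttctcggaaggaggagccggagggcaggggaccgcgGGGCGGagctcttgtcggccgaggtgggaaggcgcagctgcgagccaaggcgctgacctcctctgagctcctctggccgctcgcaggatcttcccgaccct
Fzd5: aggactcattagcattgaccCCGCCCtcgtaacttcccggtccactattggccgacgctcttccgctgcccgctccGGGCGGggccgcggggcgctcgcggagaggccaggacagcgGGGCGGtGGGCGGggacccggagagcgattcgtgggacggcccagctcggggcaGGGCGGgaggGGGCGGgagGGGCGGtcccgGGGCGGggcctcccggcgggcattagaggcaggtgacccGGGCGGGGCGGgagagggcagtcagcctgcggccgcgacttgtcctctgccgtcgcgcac
The Wnt4 window (chr4:137277385-137277684, plus strand) was 84.3% G and C with 8 GC boxes, and the Wnt2b window (chr3:104961660-104961959, minus strand) was 79.7% with 4. The Fzd5 window (chr1:64737701-64738000, minus strand) was 75.7% with 10, overlapping matches counted, and the Frzb window (chr2:80447347-80447646, minus strand) was 64.7% with 1. A gene that rose and a gene that fell thus both carried a dense run of GC boxes. The median over all 32851 listed promoters was 52.7% G and C. On either strand a GC box lay in 35.7% of all promoters and in 32 of the 41 of the Wnt genes, CTTTGAT (the core bound by TCF/LEF factors) in 3.73% and in 2 of 41, and TGANTCA (the AP-1 motif) in 7.81% and in 1 of 41. None of the 4 windows printed holds CTTTGAT or TGANTCA.

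Among the tested ligands Wnt4 (Entrez 22417 in the deposited table), known for kidney tubule and female reproductive tract development, had the largest difference on the log2(RPKM + 1) scale. Its level was 9.23, 4.92, 9.04 and 5.59 RPKM in Ad-control replicates 1 to 4 and 49.95, 40.8, 49.5 and 52.0 RPKM in Ad-KLK8 replicates 1 to 4. Every library labelled Ad-KLK8 lay far above every library labelled Ad-control, with Ad-control 2 and 4 the lowest of all. The means were 7.20 ± 2.26 and 48.1 ± 4.95 RPKM (SD, n = 4 each here and below), a 6.68-fold difference of means and a log2 difference of 2.62 (SE 0.17, adjusted p = 1.90e-07 by limma, 2.03e-08 to 5.38e-05 over the alternatives). Wnt5a (Entrez 22418), which can signal through the receptor Ror2, was at 15.2, 10.5, 15.1 and 11.3 RPKM against 41.5, 47.0, 41.9 and 42.3 RPKM. The groups did not overlap, Ad-KLK8 2 was the highest, and Ad-control 1 and 3 lay above 2 and 4 as they did for Wnt4. The means were 13.0 ± 2.49 and 43.2 ± 2.60 RPKM, 3.31-fold apart (log2 difference 1.67, SE 0.11, adjusted p = 1.97e-07).

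Together these transcripts changed the make-up of the ligands. The summed level of all 19 ligands was 36.2 ± 4.68 RPKM with the control label and 109 ± 3.84 RPKM with the Ad-KLK8 label, a ratio of 3. Wnt4 and Wnt5a made up 55.3 ± 6.12% and 84.0 ± 0.713% of that sum. The ligands other than these summed to 16 ± 0.701 and 17.4 ± 1.30 RPKM, so the sum without Wnt4 and Wnt5a was nearly level. The ratio of Wnt4 to Wnt5a per length was 0.606, 0.469, 0.597 and 0.493 in Ad-control 1 to 4 and 1.20, 0.869, 1.18 and 1.23 in Ad-KLK8 1 to 4, so Wnt5a led in all libraries labelled Ad-control and Wnt4 in the Ad-KLK8 libraries other than replicate 2.

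**Figure D3:**
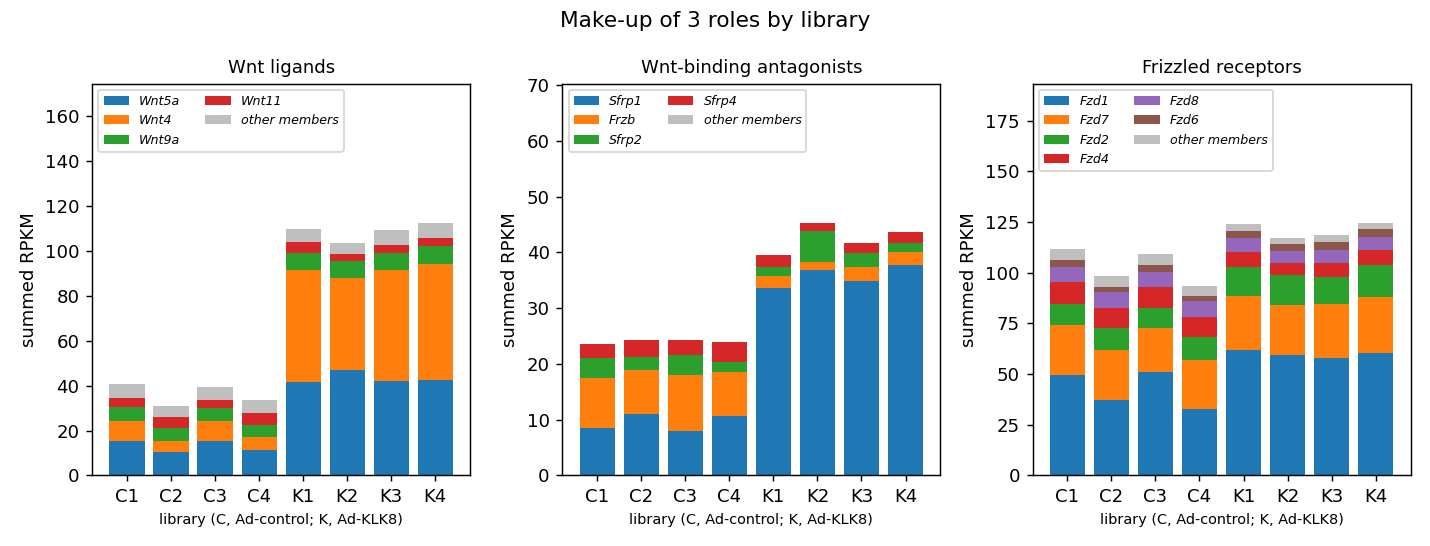
Summed RPKM of the Wnt ligands, the Wnt-binding antagonists and the Frizzled receptors in each library (C1 to C4, Ad-control 1 to 4; K1 to K4, Ad-KLK8 1 to 4), with each colour 1 gene and grey the other members. Wnt4 and Wnt5a fill most of the ligand bars in K1 to K4, Sfrp1 fills most of the antagonist bars there, and the Frizzled bars keep the same leading genes in all libraries.

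The remaining ligands were lower in level. Wnt2b, a mesenchymal ligand of early lung specification, rose from 2.16 ± 0.435 to 4.14 ± 0.799 RPKM (log2 difference 0.70, SE 0.13, adjusted p = 0.000483). Wnt9a rose from 5.89 ± 0.222 to 7.69 ± 0.0841 RPKM (0.34, SE 0.045, adjusted p = 4.72e-05). Wnt5b, the close relative of Wnt5a, went the other way, from 1.60 ± 0.259 to 0.567 ± 0.0623 RPKM (-0.72, SE 0.080, adjusted p = 1.13e-05), which is 2.81-fold by means although under 2-fold on the log2(RPKM + 1) scale that compresses low levels. The 2 relatives thus differed in direction, and the groups of libraries did not overlap for either. Wnt11 was at 4.34 ± 0.857 and 3.72 ± 0.603 RPKM (-0.17, 95% confidence interval -0.44 to 0.10, adjusted p = 0.214), and Wnt2, a ligand of lung mesenchyme, at 0.751 ± 0.164 and 0.912 ± 0.280 RPKM (0.12, interval -0.14 to 0.38, adjusted p = 0.360). Neither passed the test, the groups overlapped for both, and for Wnt11 the sign turned under 3 scalings. Without Ad-KLK8 replicate 2, the lowest of its group, Wnt2 passed at 0.23 (adjusted p = 0.0324, range over its alternatives 0.00434 to 0.811).

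Of the genes that release the ligands, Wls, the carrier that takes lipid-bearing Wnt proteins to the cell surface, had the highest level of the 30 tested genes. It was at 91.4, 93.0, 92.4 and 89.9 RPKM in Ad-control 1 to 4 and 109.5, 100.1, 110.7 and 110.7 RPKM in Ad-KLK8 1 to 4. The groups did not overlap, and Ad-KLK8 2 lay between the other libraries of its label and the controls. The difference was small (91.7 ± 1.33 to 108 ± 5.14 RPKM, log2 difference 0.23, SE 0.041, adjusted p = 0.000451). Porcn, the enzyme that attaches the lipid, was at 0.797 ± 0.178 and 0.786 ± 0.0683 RPKM and did not pass (adjusted p = 0.964, log2 interval -0.18 to 0.18).

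Of the 8 tested Frizzled receptors 5 were higher and 3 lower, against 25.7% and 52% of all tested genes, or 5 higher and 2 lower after median-of-ratios scaling, against 38.4% and 38.7%. Fzd1 was the most abundant per length, at 49.6, 37.4, 50.9 and 32.8 RPKM in Ad-control 1 to 4 and 62.0, 59.5, 58.1 and 60.5 RPKM in Ad-KLK8 1 to 4. The controls fell into a higher pair (1 and 3) and a lower pair (2 and 4), and all lay under the Ad-KLK8 libraries. The means were 42.7 ± 8.94 and 60.0 ± 1.65 RPKM (log2 difference 0.51, SE 0.12, adjusted p = 0.00297). Fzd7 came next, at 24.6, 24.7, 22.1 and 24.4 RPKM against 26.6, 24.9, 26.5 and 27.6 RPKM. The lowest Ad-KLK8 library (2) was barely above the highest control, so the groups nearly met. The log2 difference was 0.14 (SE 0.048, adjusted p = 0.0244), and it missed the threshold without Ad-control 3 (adjusted p = 0.0692) or without Ad-KLK8 1, 3 or 4 (0.0546, 0.0523 and 0.0752), within a range of 7.01e-05 to 0.2 over all alternatives. Fzd2 rose from 10.4 ± 0.684 to 14.6 ± 0.991 RPKM (0.46, SE 0.061, adjusted p = 4.46e-05), and Fzd6, known for orienting hair follicles through planar polarity, from 2.83 ± 0.227 to 3.92 ± 0.160 RPKM (0.36, SE 0.060, adjusted p = 0.000240). Fzd3, a receptor of axon guidance, was at 0.854 ± 0.0889 and 1.11 ± 0.158 RPKM (0.18, SE 0.072, adjusted p = 0.0403) with overlapping groups. Its call was lost without Ad-control 1, 2 or 4 (0.0555, 0.0915 and 0.0822) or Ad-KLK8 3 or 4 (0.119 and 0.0814), within a range of 6.36e-05 to 0.119.

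The Frizzled genes that fell included Fzd4, the receptor of norrin in retinal vessels, from 10.4 ± 0.760 to 6.83 ± 0.808 RPKM (log2 difference -0.54, SE 0.080, adjusted p = 9.62e-05). Fzd5, needed for vessels of the yolk sac, fell from 4.10 ± 0.275 to 1.85 ± 0.252 RPKM (-0.84, SE 0.076, adjusted p = 2.40e-06), 2.21-fold by means. Its promoter, with 10 GC boxes, is among those printed above. Fzd8 fell from 7.65 ± 0.301 to 6.26 ± 0.297 RPKM (-0.25, SE 0.050, adjusted p = 0.000907), but it did not pass after median-of-ratios scaling (-0.06, adjusted p = 0.314, range 0.000432 to 0.896) and turned to 0.008 under quantile normalization. The groups of libraries did not overlap for Fzd4, Fzd5 or Fzd8. The sum over the 10 Frizzled genes went from 103 ± 8.69 to 121 ± 3.83 RPKM, and Fzd1 held 41.0 ± 5.37% and 49.6 ± 1.06% of it. The ratio of Fzd1 to Fzd7 was 2.02, 1.52, 2.30 and 1.34 in Ad-control 1 to 4 and 2.33, 2.39, 2.19 and 2.19 in Ad-KLK8 1 to 4, and these ranges overlap.

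Of the co-receptors, Lrp6 rose from 13.8 ± 0.953 to 18.5 ± 0.496 RPKM with no overlap (log2 difference 0.40, SE 0.052, adjusted p = 3.48e-05). Lrp5 was at 28.3, 26.3, 27.6 and 32.2 RPKM in Ad-control 1 to 4 and 31.0, 28.7, 29.8 and 30.8 RPKM in Ad-KLK8 1 to 4. Ad-control 4 was the highest of all 8, so the groups overlapped, and the difference did not pass (0.07, interval -0.06 to 0.21, adjusted p = 0.266). Without Ad-control 4 it was 0.13 (adjusted p = 0.0221), and after median-of-ratios scaling 0.29 (adjusted p = 0.00125), within a range of 0.000799 to 0.697.

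Among the antagonists that bind Wnt proteins, Sfrp1 and Frzb were at similar levels in the controls, and Sfrp1 alone led in the libraries labelled Ad-KLK8. Sfrp1 (Entrez 20377), which carries a Frizzled-like cysteine-rich domain, was at 8.47, 11, 7.92 and 10.6 RPKM in Ad-control 1 to 4 and 33.6, 36.8, 34.8 and 37.7 RPKM in Ad-KLK8 1 to 4. The groups lay far apart, and here Ad-control 2 and 4 were the higher pair. The means were 9.50 ± 1.54 and 35.7 ± 1.84 RPKM, 3.76-fold apart (log2 difference 1.82, SE 0.092, adjusted p = 3.41e-08). Frzb (Entrez 20378), a related protein first known from cartilage, was at 8.94, 7.90, 10.2 and 7.91 RPKM against 2.07, 1.44, 2.47 and 2.45 RPKM. Every Ad-KLK8 library was below every control, with Ad-KLK8 2 the lowest. The means were 8.73 ± 1.08 and 2.11 ± 0.481 RPKM (log2 difference -1.65, SE 0.12, adjusted p = 3.71e-07), and of the 30 tested genes it was the only one lower by at least 2-fold on this scale. The ratio of Sfrp1 to Frzb was 0.947, 1.40, 0.778 and 1.34 in Ad-control 1 to 4 and 16.2, 25.5, 14.1 and 15.4 in Ad-KLK8 1 to 4. Of the summed antagonist level, which went from 24.0 ± 0.377 to 42.6 ± 2.50 RPKM, Sfrp1 held 39.5 ± 6.25% and 84.0 ± 2.24%, and Frzb 36.3 ± 4.42% and 4.99 ± 1.24%.

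Sfrp4 fell from 2.94 ± 0.448 to 1.84 ± 0.241 RPKM (log2 difference -0.47, SE 0.093, adjusted p = 0.000872), but under quantile normalization it did not pass (-0.14, adjusted p = 0.2, the highest of a range from 0.000455). Sfrp2 was at 3.70, 2.26, 3.44 and 1.92 RPKM in Ad-control 1 to 4 and 1.76, 5.56, 2.51 and 1.57 RPKM in Ad-KLK8 1 to 4. Ad-KLK8 2 held the highest value of all 8 and the other 3 of its label lay within or below the control range, so no direction can be read (adjusted p = 0.825, interval -0.68 to 0.54). Of the Dickkopf genes Dkk3, a divergent relative that does not act on Lrp5 and Lrp6 as Dkk1 does, was the only one with a mean over 0.5 RPKM. It was at 26.7, 28.5, 26.5 and 26.4 RPKM in Ad-control 1 to 4 and 36.8, 29.5, 38.4 and 37.5 RPKM in Ad-KLK8 1 to 4. The groups did not overlap, and Ad-KLK8 2 lay next to the controls (27.0 ± 0.991 to 35.6 ± 4.09 RPKM, log2 difference 0.38, SE 0.075, adjusted p = 0.000909).

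Inside the cell, Axin1, the scaffold that holds the kinases marking β-catenin for degradation, was at 22.1, 19.4, 21.7 and 19.4 RPKM in Ad-control 1 to 4 and 17.0, 14.9, 15.2 and 16.3 RPKM in Ad-KLK8 1 to 4. All Ad-KLK8 libraries were below all controls (20.7 ± 1.44 to 15.8 ± 0.963 RPKM, log2 difference -0.36, SE 0.059, adjusted p = 0.000212). Under upper-quartile scaling it missed the threshold (-0.13, adjusted p = 0.0588, range 5.83e-05 to 0.0588). Axin2, a feedback target of β-catenin and TCF/LEF, was far lower at 0.653 ± 0.0958 and 0.830 ± 0.188 RPKM and did not pass (0.14, interval -0.05 to 0.33, adjusted p = 0.155). Without Ad-KLK8 2, the lowest of the 8, it was 0.22 (adjusted p = 0.0217), and after median-of-ratios scaling 0.23 (adjusted p = 0.0337), within a range of 0.000593 to 0.724. Of the 2 scaffolds 0 were higher and 1 lower, against 25.7% and 52% of all tested genes. After median-of-ratios scaling 1 was higher and 1 lower, against 38.4% and 38.7%. With so few genes nothing is read from this count.

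The 4 TCF/LEF factors, which bind DNA and recruit β-catenin, were 1 higher and 2 lower, or 1 higher and 1 lower after median-of-ratios scaling, against the same shares of all tested genes as given for the Frizzled receptors. Tcf7 fell from 5.33 ± 0.475 to 2.68 ± 0.532 RPKM with no overlap (log2 difference -0.79, SE 0.097, adjusted p = 2.62e-05). Lef1 was at 0.705 ± 0.240 and 0.367 ± 0.108 RPKM (-0.31, SE 0.10, adjusted p = 0.0176) with overlapping groups. It averaged over 0.5 RPKM in the controls alone, and without Ad-control 1 it was under the filter and not tested. Its call was lost after median-of-ratios scaling (adjusted p = 0.0514) and without Ad-KLK8 4 (-0.28, adjusted p = 0.0513), within a range of 0.00761 to 0.835, and its sign turned under quantile normalization. Tcf7l2 rose slightly, from 2.45 ± 0.173 to 2.94 ± 0.0793 RPKM (0.19, SE 0.056, adjusted p = 0.00952). Tcf7l1, often a repressor, was the most abundant of the 4 at 8.95 ± 0.430 and 8.10 ± 0.666 RPKM (-0.13, interval -0.27 to 0.004, adjusted p = 0.0707). It passed as lower under TPM, with sample weights in limma, without Ad-control 2 (-0.16, narrowly) and without Ad-KLK8 2 (-0.17, adjusted p = 0.0168). Its adjusted p ranged from 0.0100 to 0.458 over the alternatives, and its sign turned under 3 scalings.

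The other 19 genes were under the filter, 12 of them ligands. Just under it was Wnt10b with 166 reads under the control label and 56 under the Ad-KLK8 label (mean 0.486 RPKM over all 8), and just inside was Lef1. In the same order Fzd10 had 61 and 10 reads, Dkk2 49 and 19, and Dkk1, which blocks the co-receptors, 38 and 5. Wnt1 had 23 reads and none, a ratio of 8.66 (scaled to library size) against 3 reads over the group. Wnt8a had 8 (4, 0, 1 and 3 in Ad-control 1 to 4) and none, a ratio of 3.01. The error of the control reads does not enter either ratio. With no filter on low levels, Dkk1, Dkk2, Fzd10, Wnt1 and Wnt10b were also lower at an adjusted p of 0.00947, 0.00930, 5.30e-06, 0.0157 and 0.00286 (limma). That fit called 7471 genes lower and 3197 higher of the 17461 genes above 0. The other Wnt genes under the filter with reads did not pass, Wnt8a narrowly (adjusted p = 0.0518, limma). These calls rest on few reads, so nothing is read from their count. Wnt6 had 25 and 14 reads, Fzd9 16 and 5, Wnt16 8 and 1, Wnt7b 6 and 5, Wnt8b 6 and 2 and Wnt10a 3 and 10. Wnt3, Wif1, Wnt7a, Wnt3a and Sfrp5 had at most 3 reads in either group, and no read was assigned to Dkk4 or Wnt9b. For these last 7 genes no difference was detectable at this depth.

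As over the whole table, single libraries stood apart within the labels. Ad-control 1 and 3 lay both above or both below 2 and 4 for 20 of the 30 tested genes (66.7%, against 49.0% of all tested genes). Ad-KLK8 2 was the highest or the lowest of its group for 23 of 30 (76.7%, against 66.8% of all tested genes).

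Counts for the remaining genes of the pathway stand beside the 25.7% higher and 52% lower of all tested genes and their median log2 difference of -0.19, or 38.4%, 38.7% and -0.002 after median-of-ratios scaling. A list of 17 genes, all tested, held the destruction complex, β-catenin and proteins that act on them, such as Dvl1 and Siah1a. Of these 17 genes 5 were higher (29.4%) and 8 lower (47.1%), near those shares, and their median was -0.16. Under median-of-ratios scaling 8 were higher and 7 lower, and the median turned to 0.02. Those with the smallest adjusted p were Siah1a, a ubiquitin ligase (6.86 ± 0.216 to 3.64 ± 0.159 RPKM, log2 difference -0.76, adjusted p = 1.88e-07), the kinase Gsk3a (-0.51, 6.94e-07), the adaptor Dvl1 (-0.57, 9.92e-07), the phosphatase subunit Ppp2ca (-0.37, 3.09e-06) and Apc2, a relative of Apc (0.61, 1.03e-05). The R-spondins, secreted proteins that protect Frizzled receptors from removal by Rnf43 and Znrf3, gave 1 higher and 4 lower of 6 tested with their receptors and ligases, also after median-of-ratios scaling. Of the 4 lower, Rspo2 and Lgr6 averaged over 0.5 RPKM in the controls alone, so nothing is read from this count. Rspo1 was the one that rose, from 5.14 ± 0.664 to 25.0 ± 0.936 RPKM (2.09, SE 0.072, adjusted p = 3.48e-09). Rspo3, the R-spondin with the highest level in both groups, did not pass (39.7 ± 8.10 and 36.5 ± 1.49 RPKM, -0.10, adjusted p = 0.444). Rspo2 fell from 0.996 ± 0.221 to 0.102 ± 0.0567 RPKM (-0.85, adjusted p = 5.61e-06), and the ligase Znrf3 (-0.49, 4.23e-05) and the R-spondin receptors Lgr6 (-0.43, 0.000201) and Lgr4 (-0.38, 0.000237) were lower too. Without Ad-control 1 or 4, 2 of this list were lower, as Rspo2 and Lgr6 then fell under the filter.

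Of 14 tested other extracellular modulators 7 were higher (50%) and 3 lower (21.4%) with a median of 0.17, or, under median-of-ratios scaling, 10 higher and 3 lower (median 0.37). The 3 that fell were Tspan12, a partner of Fzd4 (2.07 ± 0.214 to 0.616 ± 0.0526 RPKM, -0.93, adjusted p = 4.58e-07), Trabd2b, a protease that inactivates Wnt proteins (-0.69, 4.63e-06), and the secreted protein Cthrc1 (-0.88, 7.65e-06). Igfbp4 (0.66, 6.92e-05) and Reck (0.49, 0.000129) rose. Of 14 tested alternative receptors and planar polarity genes 5 were higher (35.7%) and 4 lower (28.6%) with a median of 0.02, or, under median-of-ratios scaling, 7 higher and 4 lower (median 0.19). Daam2, among the 5 higher, averaged over 0.5 RPKM in the Ad-KLK8 libraries alone (0.458 and 0.989 RPKM), so nothing is read from this count. The genes called included the receptor Ptk7 (44.7 ± 5.61 to 82.5 ± 3.48 RPKM, 0.88, adjusted p = 2.10e-06) and, lower, Ror2 (11.9 ± 1.51 to 6.68 ± 0.416 RPKM, -0.74, 1.19e-05). The polarity scaffold Scrib (-0.71, 9.18e-07), the formin Daam1 (-0.46, 3.66e-06) and Mcc (-0.65, 1.90e-05) were lower as well. Thus Wnt5a rose while Ror2, a receptor it can use, fell. Ryk, another receptor of this list and at a higher level than Ror2, did not fall. It was at 63.0 ± 5.30 and 69.0 ± 3.22 RPKM and did not pass (0.13, adjusted p = 0.0685), and after median-of-ratios scaling it was higher (0.35, adjusted p = 0.000607). Of 17 nuclear partners and repressors 6 were higher (35.3%) and 7 lower (41.2%) with a median of 0.01, or, under median-of-ratios scaling, 9 higher and 3 lower (median 0.21). Bcl9l, which couples β-catenin to its co-activators, rose from 11.1 ± 0.780 to 21.6 ± 0.763 RPKM (0.91, adjusted p = 8.68e-08), and the co-repressors Ctbp2 (-0.79, 1.10e-06), Tle1 (-0.63, 1.30e-06) and Tle4 (-0.71, 7.63e-06) fell while Ctbp1 rose (0.52, 1.57e-05).

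Of 23 tested genes known as transcriptional targets or feedback genes of the pathway in various tissues, 8 were higher (34.8%) and 13 lower (56.5%), near the shares of all tested genes, with a median log2 difference of -0.43. By at least 2-fold 2 were higher and 8 lower of the 23, against 2.35% and 9.85% of all tested genes. The list was chosen with earlier results of these data known. Nkd2, among the 8, averaged over 0.5 RPKM in the controls alone (2.46 and 0.29 RPKM), so nothing is read from these counts. Under median-of-ratios scaling 10 of the 23 were higher and 12 lower (median -0.22), and 3 and 7 by at least 2-fold, against 4.12% and 6.8%. Those with the smallest adjusted p were Fosl1 (65.2 ± 5.71 to 11.7 ± 1.23 RPKM, -2.39, adjusted p = 2.71e-09) and Jun (76.3 ± 4.22 to 30.5 ± 1.13 RPKM, -1.29, 4.90e-09), which encode AP-1 subunits, and the gap junction gene Gja1 (-1.36, 2.83e-09). The matricellular gene Wisp1 rose from 14.2 ± 0.853 to 33.6 ± 1.02 RPKM (1.19, 8.21e-09) and the membrane protease gene Mmp14 from 124 ± 5.65 to 235 ± 2.76 RPKM (0.91, 1.51e-08). These genes also respond to other signals, and Notum, Lgr5, Rnf43, Znrf3 and Apcdd1 stand in 2 of the lists.

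**Figure D4:**
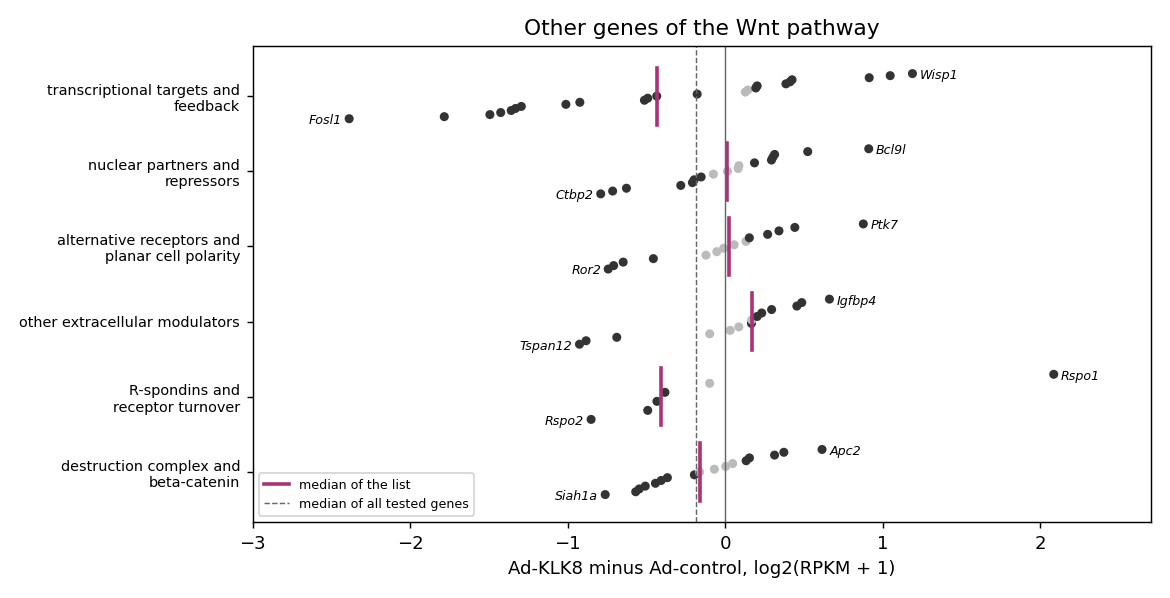
Difference between the groups, Ad-KLK8 minus Ad-control in log2(RPKM + 1), for each tested gene of 6 lists of other Wnt pathway genes, dark where the adjusted p was under 0.05 and grey where not, with a bar at the median of each list and a dashed line at the median of all tested genes (-0.19). The lists spread to both sides of 0, with Rspo1 at 2.09 and Fosl1 at -2.39 the farthest points.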

How the data were processed

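RNA was measured in 8 libraries, 4 per group, grouped by the treatment in the labels. Total RNA was extracted with TRIzol and sequenced from a stranded mRNA kit, per the labels' protocols. The authors deposited 1 table of RPKM values for 21878 genes. The submitters' processing notes name HISAT2, Cufflinks, Trimmomatic, DESeq and SAMtools, with no versions or roles, and GRCh38, a human build, while the gene IDs are those of mouse, so no coordinates were taken from the files. Not given in the sources used here were the annotation, the strand setting and the assignment of reads shared by related genes, so values of close relatives carry that uncertainty. Date-like strings replaced 12 gene names.

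The RPKM of all 17461 genes above 0 corresponded to whole numbers of reads (tolerance 0.001 read), and reads were recovered, for 191 genes with the help of gene lengths. The genes in the table held 99.9% of the reads behind the deposited RPKM, and the median depth of a tested gene was 564 reads. limma 3.58.1 in R 4.3.3 (mean-variance trend, group as the only term, two-sided) was run on log2(RPKM + 1) of the 11998 genes averaging 0.5 RPKM or more, with Benjamini-Hochberg adjustment at 0.05. This scale understates changes of low genes. Klk8 was tested by an exact permutation test over samples. Tables were made with Python 3.11.15 and pandas 2.3.3, and the fit was tested on simulated data. Alternatives were other pseudocounts, filters, scalings and limma settings, the replicate number as a block, limma-voom on recovered reads, and each library left out. Averaging closely similar libraries was added after seeing the data. No replicate pair differed by less than sampling noise, so each library counted once.

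The Wnt genes and gene lists were chosen with earlier results of these data known. All tested Wnt genes are named, those changed at least 2-fold or with a mean of at least 20 RPKM in either group with every library's value, and from each pathway list the 5 called genes with the smallest adjusted p. Other genes of these lists are named where their level or direction bears on those 5. Promoters and their motifs were read from RefSeq.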

Additional observations from a re-analysis of the deposited data

Results flagged for a closer look

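Within groups of 4 libraries, 1 library lay far from the others (Dixon's test at its 95% critical value) in 6 of 62 groups examined, where chance gives about 1 in 20. Ad-KLK8 replicate 2 accounted for 3 of the 6. It was low for Wls at 100.1 RPKM, high for Wnt5a at 47.03 RPKM and high for Klk8 at 3263 RPKM. Ad-KLK8 replicate 4 was high for Tcf7 at 3.475 RPKM. Ad-control replicate 2 was high for Dkk3 at 28.5 RPKM, and Ad-control replicate 3 was low for Fzd7 at 22.1 RPKM.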

How the results depend on the processing

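Over 23 alternatives, 17 of the 23 called Wnt genes kept direction and call wherever they were tested, and the other 6 were Axin1, Fzd3, Fzd7, Fzd8, Lef1 and Sfrp4. Of 670 values of single genes, 610 kept both direction and side of the threshold, 21 lost the call, 15 gained one and 24 changed sign. For the values below the cause was not tested unless it is given.

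Over all genes, 4784 were higher under upper-quartile scaling and 4892 under quantile normalization, against 3079, and 4091 were lower with a minimum mean of 5 RPKM, where fewer genes are tested, against 6243. Wnt genes called lower numbered 14 with no filter, where 7471 of all genes were lower, and 4 with the minimum of 5 RPKM, against 9. In the list of the destruction complex and proteins acting on it 8 were higher after median-of-ratios scaling, against 5. Among nuclear partners 3 were then lower, against 7. R-spondin genes called lower ranged from 2 to 4 with 1 library left out. The median of the Wnt genes, 0.13, was 0.18 with a pseudocount of 0.1, -0.011 with no filter, 0.28 with a minimum of 5 RPKM, 0.27 under upper-quartile scaling, 0.32 under quantile and 0.26 under median-of-ratios, 0.18 with voom, 0.0503 with closely similar libraries averaged, and 0.0637 to 0.163 with 1 library left out. The voom fit called 9331 genes.

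Signs changed for small differences. Under quantile normalization Fzd8 was 0.00818 and Lef1 0.0242. Under upper-quartile, quantile and median-of-ratios scaling, in that order, Tcf7l1 was 0.0885, 0.11 and 0.0662, Wnt11 0.0231, 0.12 and 0.00329, Porcn 0.10, 0.34 and 0.0927, and Sfrp2 0.11, 0.26 and 0.0877. With similar libraries averaged Porcn was 0.0082 and Sfrp2 0.32, and with a pseudocount of 0.1 Porcn was 0.00188. With 1 library left out, Porcn ranged from -0.0702 to 0.0399, Sfrp2 from -0.3615 to 0.0883, and Klk8 from -0.0361 to 0.46.

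Replicate numbers did not pair the libraries (correlation of same-numbered deviations -0.09 to 0.01). With a replicate block 14 Wnt genes were higher and 9 lower, and 9170 genes passed in all, against 9322. Depth limits the genes with few reads, where a count of 0 allows up to 0.190 RPM.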
